A study of Mus musculus with 12 samples.

Results

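The 9 genes described here mark the endothelial cells of brain blood vessels: the junction and adhesion genes Cldn5, Cdh5 and Pecam1, the receptor genes Flt1 and Tek, the transporter genes Slco1a4 and Abcb1a, and the surface protein genes Ly6c1 and Itm2a. They were chosen by name, and all 9 were found by symbol among the 24079 genes of the count table. They were also all among the 17823 genes tested, for which a total of at least 15 reads was required. The libraries hold mRNA bound to HA-tagged ribosomes of hippocampal CA1 pyramidal cells from 6 wild-type (WT) and 6 Fmr1-/y replicates, each a pool of 4 to 6 mice. All mice were males of 2 to 6 months, given as C57BL/6J, and carried the Wfs1-CreERT2 transgene and the RiboTag allele, so that tamoxifen, through a Cre driven by the Wfs1 promoter, turns on HA-tagged Rpl22 of the large ribosomal subunit. Both genotypes received tamoxifen (100 mg/kg for 3 days) and were used 1 week later. The Fmr1-/y group differs by the lack of Fmr1, and the WT animals were littermates.

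Endothelial cells line the blood vessels, and those of the brain form the blood-brain barrier. They are sealed to each other by tight and adherens junctions, carry transporters that feed the brain and pumps that keep drugs out, and depend on VEGF and angiopoietin receptors for their growth and stability. They are not the cells in which the tagged ribosomes are meant to be made, and bulk values of this kind cannot tell more endothelial cells or more carried-over RNA from more RNA per cell. The tagged ribosomes were pulled down from whole hippocampus. By qRT-PCR against input, the study reported Wfs1 and Slc1a1 as enriched and markers of glia and interneurons as de-enriched. The CA1 markers of the study had reads in all libraries here, but without input RNA these levels do not show how far CA1 mRNA was enriched. Wfs1, the CA1 marker that drives Cre, stood at 942 to 1434 CPM (reads scaled to a common library size by the TMM method) in WT and 942 to 1176 in Fmr1-/y libraries. Slc1a1, the other CA1 marker of the study, ranged from 209 to 252 CPM in WT and from 199 to 240 in Fmr1-/y libraries. RNA of other cells was present as well. Choroid plexus genes, for one, summed to 6405 to 11899 CPM in WT and 8331 to 17561 in Fmr1-/y libraries. Fmr1 itself had 1971 to 2608 reads in WT libraries, and a single read in all Fmr1-/y libraries together, of which 5 had 0 reads. Reads on genes numbered 39400980 to 55745464 per WT library and 43106629 to 65565479 per Fmr1-/y library. The 9 endothelial genes had between 84 and 1353 reads in a library.

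Promoter sequence is shown for the 3 members whose promoter entry lies wholly upstream of the RefSeq gene. Whether these sequences bear on the levels was not tested. RefSeq promoter entries on GRCm38.p6 were found for 7 of the 9 members, not for Pecam1 and Cdh5. Each sequence is the 250 bases before the start, 5′ to 3′ on the strand of the gene, with capitals for matches on either strand to core motifs of 4 families of endothelial transcription factors. These were AGGAAG for the ETS family, with Fli1 among its members, then TAAACA for the forkhead family, then AGATAA for the zinc finger factors of the Gata family, and AACAAT for the Sox family. Overlapping matches, as of the forkhead and Sox motifs, were counted for each. Cldn5 is at chr16:18776597-18776846 on the plus strand, Abcb1a at chr5:8566841-8567090 on the plus strand and Itm2a at chrX:107403361-107403610 on the minus strand.
Cldn5: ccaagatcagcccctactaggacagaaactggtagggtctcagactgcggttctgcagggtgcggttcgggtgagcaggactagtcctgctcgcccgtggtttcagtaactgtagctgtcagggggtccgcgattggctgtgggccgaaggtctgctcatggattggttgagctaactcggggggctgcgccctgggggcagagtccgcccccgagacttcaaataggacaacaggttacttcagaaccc
Abcb1a: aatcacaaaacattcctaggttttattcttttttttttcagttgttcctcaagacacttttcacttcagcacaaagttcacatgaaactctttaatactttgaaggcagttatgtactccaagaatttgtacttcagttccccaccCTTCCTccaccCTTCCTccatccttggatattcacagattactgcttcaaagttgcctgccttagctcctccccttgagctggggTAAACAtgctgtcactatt
Itm2a: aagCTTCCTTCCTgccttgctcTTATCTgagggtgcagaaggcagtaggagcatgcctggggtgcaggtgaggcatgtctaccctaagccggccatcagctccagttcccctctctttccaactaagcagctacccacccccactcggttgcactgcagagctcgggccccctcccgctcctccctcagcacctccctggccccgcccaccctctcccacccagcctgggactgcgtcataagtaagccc
The Cldn5 window held none of the 4 motifs. The Abcb1a window held AGGAAG at 2 places, both on the opposite strand, and TAAACA once, 19 bases before the start. The Itm2a window held 2 overlapping matches to AGGAAG and 1 to AGATAA. The 7 members with an entry had 8 windows, since Ly6c1 had more than 1 start. AGGAAG was found in 5 of these 8 windows and in 29.5% of the 32851 promoter windows of all genes. TAAACA was found in 3 of 8 against 12%, AACAAT in 2 against 9.42%, and AGATAA in 1 against 9.99%. A match describes the letters only.

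All 9 endothelial genes had a higher fitted level in Fmr1-/y than in WT libraries, by 1.11-fold (Tek) to 1.43-fold (Cdh5), with a median log2 fold change of 0.37 (1.29-fold), but none passed the test across all genes. The median over all genes tested was 0.0042. In edgeR's quasi-likelihood test, with p adjusted by Benjamini and Hochberg's method, 0 of 9 had an adjusted p under 0.05, a level reached in either direction by 0.0224% of all genes. At an unadjusted p under 0.05, 5 of 9 (Slco1a4, Cdh5, Pecam1, Flt1 and Abcb1a) were higher in Fmr1-/y libraries, against 4.29% of all genes. A positive fold change of any size was found in 9 of 9, against 51.4% of all genes. DESeq2's Wald test also gave 0 of 9 past an adjusted p of 0.05, where 0.174% of all genes passed in the higher direction. At an unadjusted p under 0.05 it gave 5 of 9, against 784 of 17804 genes in the higher direction. For no member was every Fmr1-/y library above every WT library, a separation that 0.213% of all genes showed. The 9 genes share cells and libraries, so they are not 9 separate measurements of the genotype.

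**Figure D1:**
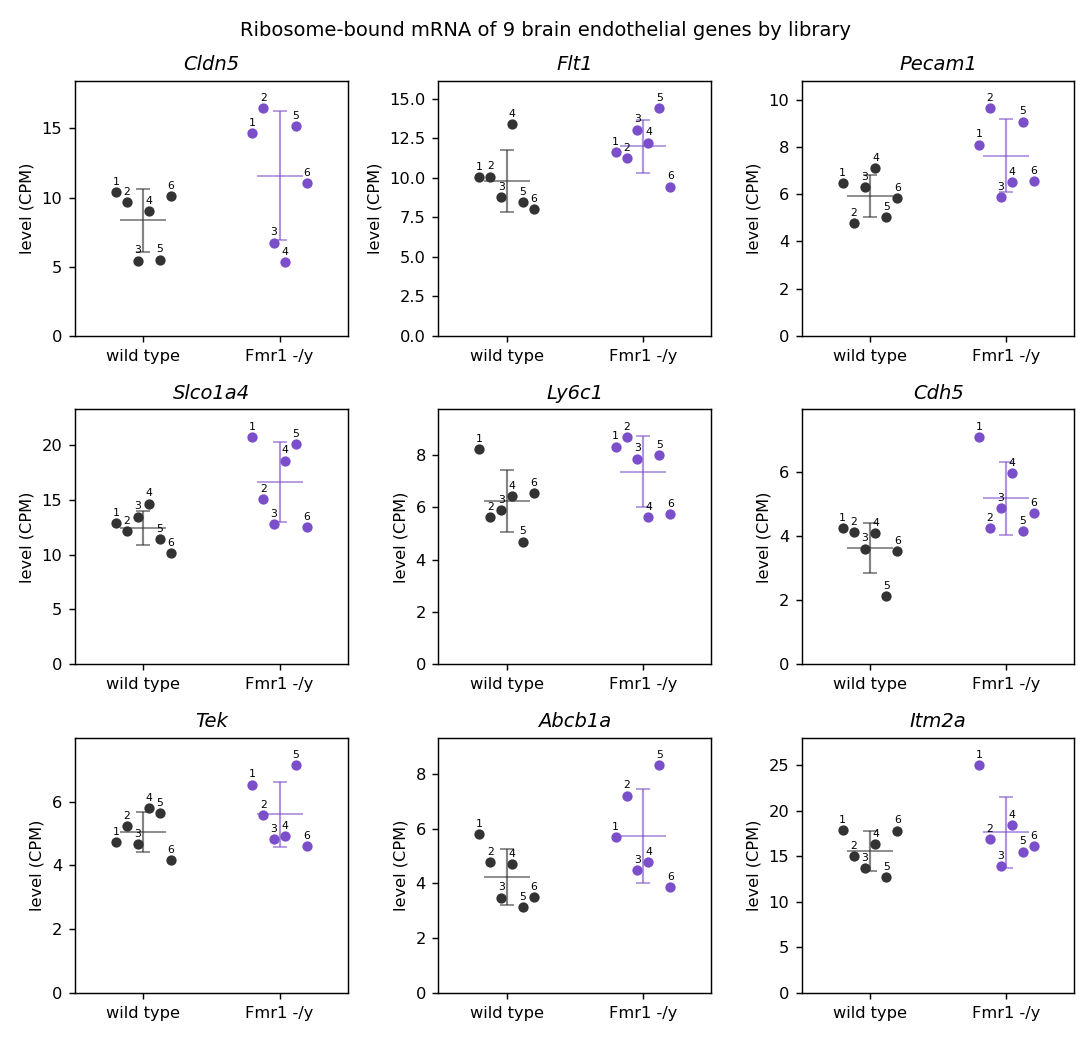
Level (CPM, linear axis from 0) of each of the 9 genes in the 6 WT (black) and 6 Fmr1-/y (purple) libraries; points carry the replicate number, horizontal lines the mean and bars the SD (n = 6). The Fmr1-/y mean is above the WT mean in every panel and the libraries of both genotypes overlap in every panel, with Fmr1-/y libraries 1, 2 and 5 often at the top.

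The fitted differences of the junction and adhesion genes Cdh5 and Cldn5 were the largest of the 9 genes, whereas the transporter genes exceeded Pecam1. Cldn5 (Entrez 12741, chromosome 16 from 18776847 to 18778262, GRCm38) encodes claudin-5, the main tight junction protein of the blood-brain barrier. Its level ranged from 5.44 to 10.4 CPM with a median of 9.35 in WT libraries, and from 5.36 to 16.4 CPM with a median of 12.9 in Fmr1-/y libraries. The log2 fold change was 0.47 ± 0.25 (SE), with an adjusted p of 0.690 in edgeR's test. Fmr1-/y libraries 1, 2, 5 and 6 were above every WT library, whereas libraries 3 and 4, at 6.74 and 5.36 CPM, were below the WT median. With a coefficient of variation of 40.2% over the Fmr1-/y libraries, Cldn5 was the most variable of the 9 genes. Cdh5 (Entrez 12562, chromosome 8 from 104101613 to 104144504) encodes VE-cadherin, the cadherin of endothelial adherens junctions. It ranged from 2.13 to 4.24 CPM (median 3.85) in WT and from 4.15 to 7.09 CPM (median 4.79) in Fmr1-/y libraries. Of the 9 genes its groups overlapped least: 5 Fmr1-/y libraries were above every WT library, and the overlap came from Fmr1-/y library 5 and WT library 1. Its log2 fold change was 0.51 ± 0.18, with an unadjusted p of 0.0098 and an adjusted p of 0.429 in edgeR's test. WT library 5, at 2.13 CPM, stood below the other WT libraries, and without it the log2 fold change was 0.40. Pecam1 (Entrez 18613, chromosome 11 from 106654213 to 106715281) encodes CD31, an adhesion molecule of endothelial contacts that platelets and white blood cells carry too. It ranged from 4.77 to 7.12 CPM (median 6.08) in WT and from 5.89 to 9.63 CPM (median 7.33) in Fmr1-/y libraries. Fmr1-/y libraries 1, 2 and 5 exceeded every WT library and the other 3 lay within the WT range. The log2 fold change was 0.37 ± 0.14, with an unadjusted p of 0.0204 and an adjusted p of 0.504 in edgeR's test.

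The receptor genes showed smaller differences. Flt1 (Entrez 14254, chromosome 5 from 147561604 to 147726438) encodes VEGF receptor 1, which binds VEGF-A and placental growth factor. It ranged from 8.02 to 13.4 CPM (median 9.40) in WT and from 9.45 to 14.4 CPM (median 11.9) in Fmr1-/y libraries. WT library 4 was far above the other WT libraries and exceeded all Fmr1-/y libraries except library 5. The log2 fold change was 0.29 ± 0.13 with an unadjusted p of 0.0373 and an adjusted p of 0.590 in edgeR's test, and it was 0.40 without WT library 4. Tek (Entrez 21687, chromosome 4 from 94739086 to 94874976) encodes Tie2, the receptor for angiopoietins. It ranged from 4.17 to 5.79 CPM (median 4.98) in WT and from 4.61 to 7.14 CPM (median 5.24) in Fmr1-/y libraries. Only Fmr1-/y libraries 1 and 5 were above the WT range. Its difference was the smallest of the 9, a log2 fold change of 0.15 ± 0.14 with an adjusted p of 0.849 in edgeR's test, and 0.07 without Fmr1-/y library 5.

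Both transporter genes of the blood-brain barrier had an unadjusted p under 0.05. Slco1a4 (Entrez 28250, chromosome 6 from 141805438 to 141856284) encodes Oatp1a4, a carrier of organic anions. Its level ranged from 10.1 to 14.6 CPM (median 12.5) in WT and from 12.5 to 20.7 CPM (median 16.8) in Fmr1-/y libraries. Fmr1-/y libraries 1, 2, 4 and 5 were above every WT library, and libraries 3 and 6 were near the WT median. It had the smallest p of the 9 genes, with a log2 fold change of 0.42 ± 0.13, an unadjusted p of 0.0061, which ranks it 283 among all genes, and an adjusted p of 0.378 in edgeR's test. Abcb1a (Entrez 18671, chromosome 5 from 8567091 to 8748575) encodes P-glycoprotein, an efflux pump for drugs. It ranged from 3.14 to 5.82 CPM (median 4.10) in WT and from 3.88 to 8.32 CPM (median 5.24) in Fmr1-/y libraries. Fmr1-/y libraries 2 and 5 were above every WT library and the other 4 were within the WT range. The log2 fold change was 0.44 ± 0.20, with an unadjusted p of 0.0414 and an adjusted p of 0.606 in edgeR's test, and it was 0.30 without Fmr1-/y library 5. Of the 50-base stretches of the Abcb1a transcript, 17.0% also occur in its paralogs Abcb1b or Abcb4, so part of its reads could be counted elsewhere or not at all. For Slco1a4 that share was 2.73%, with Slco1a5 and other genes of its family.

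The surface protein genes Ly6c1 and Itm2a had no unadjusted p under 0.05. Ly6c1 (Entrez 17067, chromosome 15 from 75044018 to 75048920) encodes a lipid-anchored protein of the Ly6 family that is also found on monocytes. It ranged from 4.69 to 8.22 CPM (median 6.15) in WT and from 5.61 to 8.68 CPM (median 7.91) in Fmr1-/y libraries. The log2 fold change was 0.24 ± 0.15, with an adjusted p of 0.746 in edgeR's test. Fmr1-/y libraries 1 and 2 were above the WT range, but WT library 1 was close to them and well above the other WT libraries, and without it the log2 fold change was 0.34. Ly6c1 is the least certain of the 9 counts, since 36.7% of its 50-base stretches occur in Ly6c2 or Ly6a as well. Ly6c2 had 4 to 47 reads and Ly6c1 185 to 520 reads in a library. Itm2a (Entrez 16431, X chromosome from 107397195 to 107403360) encodes an integral membrane protein enriched in brain vessels. It ranged from 12.7 to 17.9 CPM (median 15.7) in WT and from 13.9 to 25.0 CPM (median 16.5) in Fmr1-/y libraries. Its Fmr1-/y libraries other than 1 and 4 were inside the WT range, the log2 fold change was 0.18 ± 0.13 with an adjusted p of 0.809 in edgeR's test, and without Fmr1-/y library 1 it fell to 0.05.

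Levels of different genes were compared per kilobase of exonic length, in WT libraries. Itm2a was highest at 8.92 ± 1.24 CPM per kilobase (SD, n = 6), followed by Cldn5 at 5.91 ± 1.61, Ly6c1 at 4.02 ± 0.762 and Slco1a4 at 3.25 ± 0.412. The other 5 genes formed a lower tier of Pecam1 at 1.43 ± 0.218, Tek at 1.07 ± 0.133, Cdh5 at 0.905 ± 0.197, Flt1 at 0.894 ± 0.179 and Abcb1a at 0.848 ± 0.207 CPM per kilobase. Only at the step from Slco1a4 to Pecam1 did the ranges of neighbours in this order not overlap. All other neighbours had overlapping ranges. The order depends on the length used: per kilobase of the longest transcript in place of all exons, a choice made after seeing the data, Ly6c1 had a mean of 7.37 (range 5.55 to 9.74), above Cldn5, and Flt1 one of 1.42 (range 1.16 to 1.95), above Tek. The ranges of Cldn5 and Slco1a4 then did not overlap either.

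The libraries differed among themselves in the endothelial genes as a set. The summed level of the 9 genes was 58.7 to 81.5 CPM in WT libraries and 74.4 to 107.7 CPM in Fmr1-/y libraries. Fmr1-/y libraries 1, 2, 4 and 5 were above every WT library, at 107.7, 94.9, 82.3 and 101.8 CPM, and libraries 3 and 6, at 74.4 and 74.6 CPM, were within the WT range. WT library 5 was the lowest of the 12. After removal of the genotype means, the log2 levels of pairs of members correlated over the 12 libraries with a median Pearson r of 0.40. Of the 36 pairs, 35 had an r above 0 and 14 an r above 0.5. Cdh5 and Itm2a were the most alike pair (r = 0.74), and Cdh5 and Tek the least (r = -0.11). Abcb1a had the highest mean r with the other members, 0.53, and Cdh5 the lowest, 0.26. These are descriptions, as the points share a library and its depth.

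**Figure D2:**
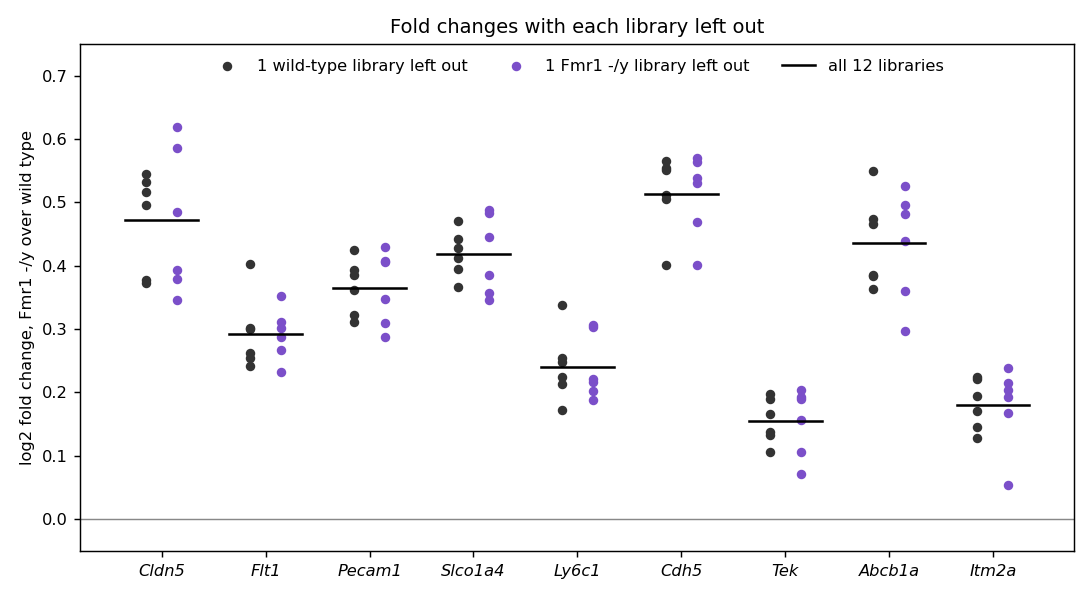
Fitted log2 fold change (Fmr1-/y over WT) of each of the 9 genes with 1 library left out at a time; black points leave out a WT library, purple points an Fmr1-/y library, and lines give the value with all 12. Every point is above 0, and Itm2a and Tek come nearest to it, at 0.05 and 0.07.

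All members kept a positive fold change with each library left out, and the number at an unadjusted p under 0.05 ranged from 2 to 6 of 9. It was 2 without Fmr1-/y library 5, and 3 without Fmr1-/y library 2 or without WT library 3, 5 or 6. It was 6 without WT library 1. Among all genes, those higher at that level in these fits ranged from 554 of 17730 to 900 of 17722. Slco1a4 and Cdh5 had an unadjusted p under 0.05 in all 12 of these fits and Pecam1 in 9, Flt1 and Abcb1a in 6 each, Cldn5 in 2, Ly6c1 in 1, and Tek and Itm2a in 0.

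A broader view came from 5 further lists with 63 genes of endothelial cells, of which 62 were tested (the selectin gene Sele had too few reads). Some stood far above the 9 members in WT libraries, as Nrp1 at 165 to 234 CPM, Slco1c1 at 60.6 to 102 CPM and Epas1 at 83.7 to 105 CPM. How much of the reads of these lists came from endothelial cells was not tested. Of the 62 genes, 50 had a positive and 12 a negative fold change, with a median log2 fold change of 0.18. None passed an adjusted p of 0.05 in edgeR's test, 15 had an unadjusted p under 0.05 in the higher direction and 1 in the lower. Of all 17823 genes tested, 764 reached that level in the higher direction and 654 in the lower, and 51.4% had a positive fold change. The counts of each list below are to be read beside these. The lists did not all look like the 9 members.

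Among surface and adhesion genes, 16 of 19 were positive, with a median log2 fold change of 0.29, and 5 had an unadjusted p under 0.05. The smallest p belonged to Esam, an adhesion molecule of endothelial tight junctions, which the study picked from these libraries and which is therefore not independent evidence of the direction. Esam ranged from 4.65 to 7.67 CPM (median 6.58) in WT and from 7.38 to 11.6 CPM (median 9.62) in Fmr1-/y libraries. Of its Fmr1-/y libraries, library 4 was within the WT range and the other 5 were above it. The log2 fold change was 0.62 ± 0.15, with an adjusted p of 0.223 in edgeR's test and 0.0220 in DESeq2's, and from 0.0220 to 0.538 over the alternatives. Ly6a, a Ly6 protein of endothelium, had a log2 fold change of 0.35 ± 0.11 (unadjusted p 0.0047), and Vcam1, which binds white blood cells, one of 0.38 ± 0.14 (unadjusted p 0.0119). The junction genes were closer to 0, with 6 of 7 positive, a median of 0.12 and 1 unadjusted p under 0.05. That gene was Lsr, which encodes angulin-1 of tricellular junctions and which the study, as with Esam, also picked from these libraries. Lsr ranged from 3.05 to 5.05 CPM in WT and from 4.99 to 7.81 CPM in Fmr1-/y libraries. Its log2 fold change was 0.62 ± 0.15, with an adjusted p of 0.216 in edgeR's test and 0.0158 in DESeq2's, and from 0.0158 to 0.517 over the alternatives. Jam2, which encodes a junctional adhesion molecule, had a log2 fold change of 0.21 ± 0.12.

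Of the 10 transport genes, 8 were positive, with a median log2 fold change of 0.21, and 5 had an unadjusted p under 0.05 in that direction. Slc2a1 encodes the glucose transporter of the barrier and had 44.9 to 59.9 CPM in WT and 48.5 to 76.6 CPM in Fmr1-/y libraries, a log2 fold change of 0.24 ± 0.11 (unadjusted p 0.0377). Mfsd2a, a lipid transporter that restrains vesicle traffic across the barrier, had a log2 fold change of 0.26 ± 0.10 (unadjusted p 0.0158). Slc22a8, an organic anion transporter, had one of 0.46 ± 0.18 and Slc38a5, an amino acid transporter, one of 0.60 ± 0.24, with unadjusted p of 0.0187 and 0.0221. The one transport gene at an unadjusted p under 0.05 in the lower direction was Tfrc, the transferrin receptor gene, named after its value was seen, with a log2 fold change of -0.20 ± 0.08.

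Of the 13 signalling receptor genes, 9 were positive, with a median log2 fold change of 0.14 and 2 unadjusted p under 0.05. Kdr, the gene of VEGF receptor 2 and partner of Flt1, ranged from 6.17 to 9.98 CPM in WT and from 6.38 to 10.9 CPM in Fmr1-/y libraries. Its log2 fold change was 0.31 ± 0.15 (unadjusted p 0.0478). Tie1, the partner receptor of Tek, had a log2 fold change of 0.35 ± 0.17 (unadjusted p 0.0546), and Eng, the endoglin gene of TGF-β and BMP signalling, one of 0.41 ± 0.14 (unadjusted p 0.0096). Of 13 transcription factor genes, 11 were positive, with a median of 0.17 and 2 unadjusted p under 0.05. These were the ETS factor gene Fli1, with a log2 fold change of 0.56 ± 0.21, and the hypoxia-inducible factor gene Epas1, with one of 0.17 ± 0.08. Lef1, a factor of Wnt signalling, followed at 0.22 ± 0.14.

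The ligands that act on these and other vascular receptors lay on both sides of 0, with 5 of 10 genes positive and a median log2 fold change of 0.01. Vegfa, the ligand of Flt1 and Kdr, ranged from 23.0 to 30.5 CPM in WT and from 20.2 to 33.1 CPM in Fmr1-/y libraries, with a log2 fold change of -0.01 ± 0.11. Pgf, another ligand of Flt1, and Wnt7a, a Wnt of barrier formation, had log2 fold changes of -0.23 ± 0.10 and -0.21 ± 0.10, with unadjusted p of 0.0408 and 0.0466. Angpt2, a Tek ligand, had one of 0.40 ± 0.25. Whether the ligand and endothelial lists differ was not tested.

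**Figure D3:**
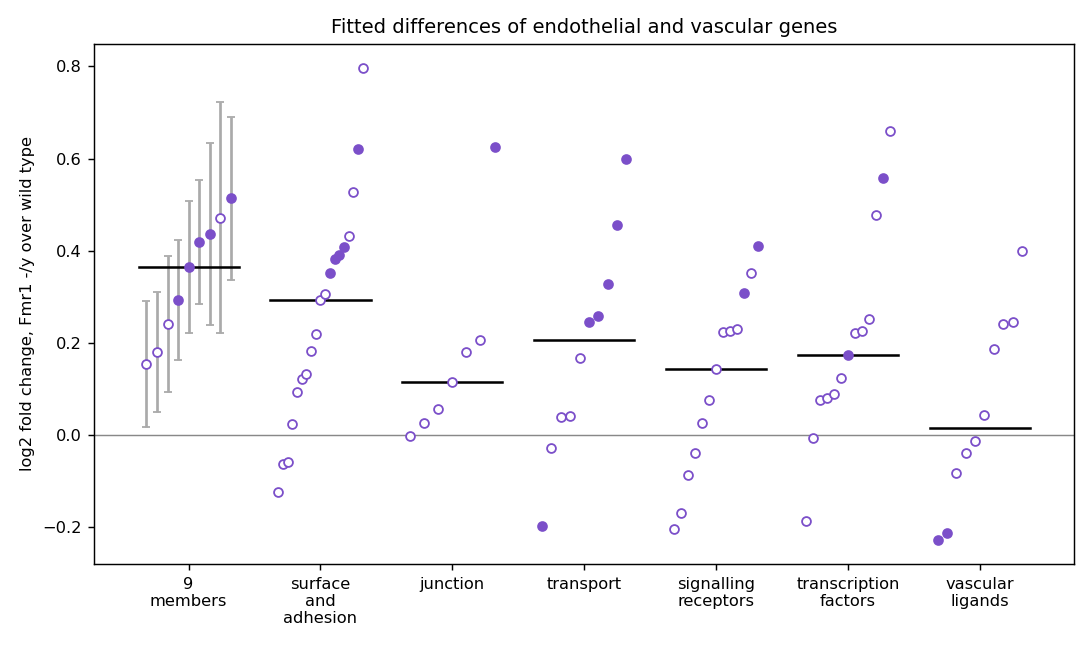
Fitted log2 fold change (Fmr1-/y over WT) of each gene tested, for the 9 members and 6 lists of endothelial or vascular genes; filled points have an unadjusted p under 0.05, none has an adjusted p under 0.05 in edgeR's test, thick lines are medians and grey bars on the members are SE. The medians go from 0.37 for the members to 0.01 for the vascular ligands.

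Markers of other cells were not balanced between the genotypes either, though none passed an adjusted p of 0.05 in edgeR's test. Of 8 astrocyte genes, 8 had a positive fold change, with a median log2 fold change of 0.22 and 5 unadjusted p under 0.05, and their summed level was 815 to 992 CPM in WT and 924 to 1388 in Fmr1-/y libraries. The abundant astrocyte genes Slc1a3, a glutamate transporter gene, and Gfap, the glial filament gene, had log2 fold changes of 0.23 ± 0.11 and 0.27 ± 0.12. All 6 choroid plexus genes were positive (median 0.41), and 4 had an unadjusted p under 0.05. Their sum was 6405 to 11899 CPM in WT and 8331 to 17561 in Fmr1-/y libraries, most of it from Ttr, the transthyretin gene. Mural cell genes, those of the pericytes and smooth muscle that wrap vessels, were positive in 11 of 13 (median 0.13), with 3 unadjusted p under 0.05. Their sums were 140 to 212 CPM in WT and 163 to 285 in Fmr1-/y libraries. Perivascular fibroblast genes were positive in 6 of 7 (median 0.33), with 3 unadjusted p under 0.05 and sums of 143 to 161 and 144 to 219 CPM. The CA1 pyramidal genes were negative in 8 of 8 (median -0.14), with sums of 7937 to 9748 and 7587 to 9070 CPM, and 3 had an unadjusted p under 0.05, Wfs1 among them with a log2 fold change of -0.27 ± 0.09 (unadjusted p 0.0083).

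Other lists gave smaller or opposite values. Microglial genes had a median log2 fold change of 0.03, with sums of 114 to 133 CPM in WT and 113 to 152 in Fmr1-/y libraries, and perivascular macrophage genes one of 0.12, with sums of 16.4 to 22.1 and 13.3 to 27.4 CPM. Oligodendrocyte genes were negative in 6 of 7 (median -0.17), with sums of 1106 to 1662 and 995 to 1518 CPM, and interneuron genes in 5 of 6 (median -0.10), with sums of 102 to 218 and 111 to 154 CPM. Among the genes of these lists, only 1 oligodendrocyte gene, in the lower direction, had an unadjusted p under 0.05 in edgeR's test. Of the red blood cell genes only Alas2 had enough reads to be tested, with a log2 fold change of 0.01. The hemoglobin genes of that list had 0 reads in all libraries together, and why was not tested. The list therefore does not show how much blood RNA was present.

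**Figure D4:**
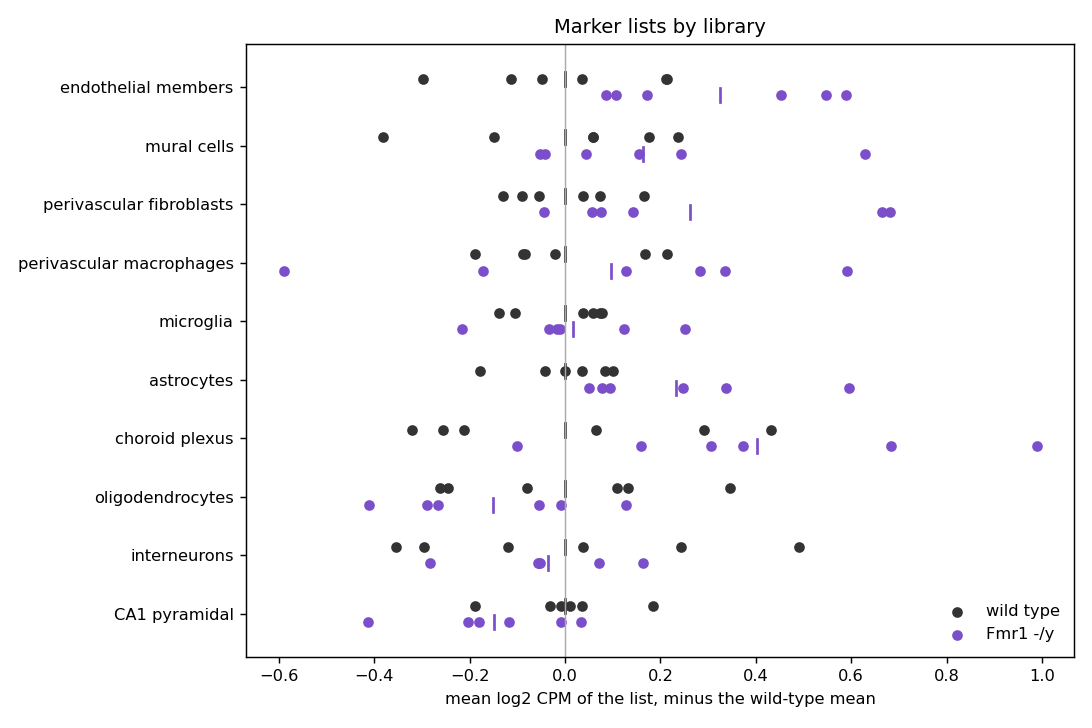
Mean log2 CPM of the 9 endothelial members and of 9 lists of markers of other cells in each library, as the difference from the WT mean of the list; black points are WT and purple points Fmr1-/y libraries, and short bars the group means. The choroid plexus, endothelial, perivascular fibroblast, astrocyte and mural lists have the highest Fmr1-/y means relative to WT, the oligodendrocyte and CA1 pyramidal lists the lowest, and groups overlap in every list.

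Fmr1-/y library 1 was the highest Fmr1-/y library for the sums of the 9 members and of the junction, transport and transcription factor lists. It was also highest for the mural, perivascular fibroblast, astrocyte, choroid plexus, microglial, perivascular macrophage and interneuron lists. For the surface and adhesion, signalling receptor, ligand and oligodendrocyte lists it was not. Its CA1 pyramidal sum, 7766 CPM, was below every WT library, as was that of Fmr1-/y library 4. Without Fmr1-/y library 1 the median log2 fold change of the members was 0.35. In that fit 4 of 9 (Flt1, Pecam1, Slco1a4 and Cdh5) had an unadjusted p under 0.05, against 554 of 17730 genes in the higher direction. Over the 12 libraries, after removal of genotype means, the mean log2 level of the members correlated with that of the surface and adhesion list at r = 0.93, of the signalling receptors at 0.77, of the transcription factors at 0.72 and of the transport genes at 0.65. The junction list stood apart from these at r = 0.12, and its r with Cldn5, itself a tight junction gene, was -0.26. Its mean log2 level was highest in Fmr1-/y libraries 1 and 4 and WT library 4, as was that of the choroid plexus list. Which cells the reads of the junction list came from was not tested. For other cells the r with the members was 0.81 for mural, 0.66 for astrocyte, 0.22 for perivascular fibroblast, 0.15 for choroid plexus and -0.04 for CA1 pyramidal genes. Single members differed from their mean. Slco1a4 had an r of 0.68 with the choroid plexus list, and Cdh5 one of 0.80 with the mural, 0.76 with the perivascular fibroblast and 0.73 with the astrocyte list. By gene, Itm2a went most with the mural list (r = 0.92) and Slco1a4 with the transport list (r = 0.92). The part of these other cells and of the amount of carried-over RNA in the endothelial values was not tested.

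Of all 13755 genes with a mean of at least 1 CPM, the one whose deviations from the genotype means were most like those of the members' mean was Degs1, a ceramide synthesis gene (r = 0.92 over 12 libraries). It was followed by Spats2l (0.92), Tspo (0.92), the class I histocompatibility gene H2-K1 (0.91), Taf1a (0.91), H2-D1 (0.90), the endothelial sialomucin gene Emcn (0.89) and the pericyte gene Rgs5 (0.89). In the same order from Degs1 to Rgs5, their log2 fold changes were 0.20, 0.13, 0.55, 0.31, -0.07, 0.36, 0.41 and 0.13.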

How the data were processed

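Ribosome-bound RNA was sequenced as stranded 50-base single reads, 4 libraries to a lane. Per the submitters' processing notes and the methods of the study, the authors used bcl2fastq 2.17, TopHat2 2.1.1 with Bowtie2 2.2.8, mm10 with UCSC gene models, and HTSeq 0.6.1p1 in union mode on the opposite strand. The deposited values are raw counts per gene, without normalization. Reads that overlap 2 genes in position are not counted in this mode. Apart from the mode, reads that align equally well to close paralogs may go uncounted, which can lower such genes.

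Genes with at least 15 reads in total were kept, as in the study. Genotypes were compared with edgeR 4.0.16 under R 4.3.3 (TMM, quasi-likelihood test, no covariate). Adjusted p, by Benjamini and Hochberg's method, are over all genes tested, with a threshold of 0.05. SE is the log2 fold change divided by the square root of F. DESeq2 1.42.0, limma 3.58.1 voom, other scalings and filters, robust fitting, a replicate block and each library left out were alternatives, and DESeq2 with the block was added after seeing the data. The scripts were tested on simulated data. Correlations and list means used log2 CPM with a prior count of 2.

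Positions and promoters are from RefSeq (GRCm38.p6, the build of mm10), and exonic lengths from merged GENCODE exons. Members and lists were chosen with earlier results of these data known. Named are the 9 members, Fmr1, Wfs1, Slc1a1, the 3 genes of smallest p in each endothelial or vascular list, Kdr, Tie1, Slc2a1 and Vegfa, at most 2 abundant genes of other lists, and the 8 genes most alike the members. The values of 1 gene that this rule names are left out here. Outside the rule, Nrp1 and Slco1c1 were named for their levels, and Tfrc, Col1a1, Slc7a10, Vtn and Gjb6 after their values were seen. Depth was 39400980 to 65565479 reads per library. Input RNA and the study's other assays were not analysed here.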

Additional observations from a re-analysis of the deposited data

Results flagged for a closer look

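The lowest or highest library of a group was compared with its nearest neighbour, as a share of the range of the group, for 112 groups of 6 libraries, and 4 exceeded Dixon's 95% critical value for 6 libraries, where chance gives about 5.6. WT library 5 was low for Cdh5, at 2.13 CPM against 3.52 to 4.24 CPM in the other WT libraries (ratio 0.660). WT library 4 accounted for the other 3. It was high for Vcam1, at 60.5 CPM against 45.5 to 48.5 (ratio 0.800), and for Epas1, at 105.4 CPM against 83.7 to 90.8 (ratio 0.673), and low for Wfs1, at 942 CPM against 1261 to 1434 (ratio 0.649). Without WT library 4 the median log2 fold change of the 9 endothelial members was 0.42, and without WT library 5 it was 0.32.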

How the results depend on the processing

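All 189 comparisons of a member's fold change under an alternative kept the positive direction, and none passed an adjusted p of 0.05. The smallest adjusted p of a member was 0.0755, for Slco1a4 in DESeq2 with the replicate block. The median log2 fold change of the 9 members was 0.30 to 0.43 with 1 library left out and 0.35 to 0.39 otherwise. The number of all genes past the threshold was 4 in edgeR's test, 84 in DESeq2's and 146 in DESeq2's with the replicate block, and 2 to 6 with 1 library left out. The cause was not tested. Other scalings, filters, voom and robust fitting gave 4 or 5. Libraries of the same replicate number correlated, after removal of genotype means, at -0.08 to 0.09 over all genes, at -0.24 to 0.35 over genes with a mean log2 CPM above 1 and at -0.44 to 0.60 above 5. At each level some pairs were near or below 0, so the numbers were not taken as pairs. With the replicate block in edgeR, 4 genes passed, and 0 of 9 members, with 5 at an unadjusted p under 0.05 and a median of 0.35. Of all 17823 genes, 737 were higher at that level in this fit. At 84 to 1353 reads per library and member, the spread between libraries, with coefficients of variation of 12.4% to 40.2%, limits the smallest differences that could be seen.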

Other observations

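On the lists of other cell types, 2 genes passed an adjusted p of 0.05 in DESeq2's test and were chosen after their values were seen. Both were higher in Fmr1-/y libraries, as were 0.174% of all genes at that threshold. They were the collagen gene Col1a1 of the perivascular fibroblast list, which the study also picked from these libraries, and the amino acid transporter gene Slc7a10 of the astrocyte list. Col1a1 ranged from 9.31 to 12.9 CPM in WT and from 11.7 to 19.5 CPM in Fmr1-/y libraries, with a log2 fold change of 0.56 ± 0.14, an adjusted p of 0.239 in edgeR's test and 0.0297 in DESeq2's, and from 0.0187 to 0.549 over the alternatives. Slc7a10 ranged from 25.2 to 29.9 CPM in WT and from 31.2 to 52.6 CPM in Fmr1-/y libraries, so that every Fmr1-/y library was above every WT library. Its log2 fold change was 0.44 ± 0.11, with an adjusted p of 0.251 in edgeR's test and 0.0390 in DESeq2's, and from 0.0016 to 0.573 over the alternatives. In DESeq2 with the replicate block, Vtn of the mural list and Gjb6 of the astrocyte list passed too, with adjusted p of 0.0087 and 0.0012. This fit was added after seeing the data and blocks on replicate numbers that were not taken as pairs. It also gave the lowest adjusted p of Col1a1 and Slc7a10 above. Of all 17823 genes, 71 passed in the higher direction in that fit.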
